A study of Mus musculus with 2 samples.

Results

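The cells described here were sorted as macrophages of the mouse sciatic nerve, and their transcripts include Ccr2 and the calcium-binding genes S100a4 and S100a6. They were chosen in the YFP- and the YFP+ library as barcodes with at least 1000 UMIs (each UMI stands for 1 captured RNA molecule), at least 200 genes, and at least 3 UMIs summed over Ccr2, S100a4, S100a6, Tppp3 and Gda (the rule genes). They are called Ccr2-S100 cells here. Chosen by these UMI counts were 777 of 3764 cells (20.6%, exact binomial 95% interval 19.4–22.0), of which 96 were YFP- and 681 YFP+. The remaining 799 YFP- and 2188 YFP+ cells are the other cells.

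The sciatic nerves were pooled from 19 male Flt3-Cre LSL-YFP fl/fl mice aged 10 to 12 weeks, and both libraries come from this one genotype. CD64+ CD45int cells were sorted by YFP and captured as 1 library per fraction with 10x v2 chemistry. In these mice Cre is driven by Flt3, so YFP marks cells that passed through a Flt3-expressing progenitor, and it records neither the time of entry into the nerve nor current Flt3 expression. With 1 library per fraction and pooled mice, no test of a difference between fractions was possible, and because the rule read the same UMIs, contrasts between Ccr2-S100 cells and the other cells are given as descriptions with no p-value.

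Ccr2-S100 cells held 305293 UMIs in the YFP- and 1649576 UMIs in the YFP+ library, with a median of 3077.5 and 2233 UMIs and 1299 and 1035 genes per cell. The other cells were shallower, with medians of 2455 and 1802.5 UMIs. Levels are UMIs of a gene per 1000000 UMIs, summed over the cells of a group (CPM), with exact Poisson 95% intervals, and 1 CPM was added to both levels before a log2 ratio was formed. The intervals hold counting error alone and say nothing of how mice, sorts or libraries differ. A level of 3 counts, the floor used here, stood for 9.83 (YFP-) and 1.82 (YFP+) CPM in Ccr2-S100 cells. Both libraries had 5 cell barcodes in common, of which 1 was a Ccr2-S100 cell in either library. Doublets, which are barcodes with more than 1 cell, were kept and no doublet caller was run.

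CCR2 is the receptor for the chemokines CCL2, CCL7 and CCL12, and it is best known for bringing Ly6C-high monocytes out of the bone marrow and into tissues. Monocytes that settle in a tissue lose Ly6c2 and other blood markers as they become macrophages, and Ccr2 and several S100 genes can still be read in macrophages for a time. S100A4 and S100A6 are small calcium-binding proteins that interact with the cytoskeleton and with annexins, TPPP3 binds microtubules, and guanine deaminase, the product of Gda, turns guanine into xanthine.

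The genes of the rule were read first, as a description of how the cells were chosen. Ccr2 stood at 806 (YFP-, 708–913) and 774 (YFP+, 732–818) CPM in Ccr2-S100 cells, against 23.5 (17.3–31.3) and 103 (93.1–113) CPM in the other cells. S100a4 stood at 278 (YFP-) and 393 (YFP+) CPM in Ccr2-S100 cells, against 7.003 and 23.3 CPM in the other cells, and S100a6 at 829 and 1155 CPM against 42.5 and 74.0 CPM. Tppp3 was at 102 and 126 CPM and Gda at 78.6 and 74.0 CPM, where the other cells had at most 13.8 CPM of Tppp3 and 9.004 CPM of Gda. S100a6 and Ccr2 were the rule genes found in most of the cells. Of the 96 YFP- cells, 69 had a UMI of S100a6, 62 of Ccr2, 46 of S100a4, 16 of Gda and 14 of Tppp3. Of the 681 YFP+ cells, 574 had a UMI of S100a6, 498 of Ccr2, 337 of S100a4, 104 of Tppp3 and 96 of Gda. Ccr2 and S100a6 occurred together in 38 YFP- and 401 YFP+ cells, and UMIs of 1 rule gene alone had carried 24 and 103 cells over the threshold. The sum over the rule genes had a median of 5 UMIs in both libraries and reached 25 and 47 UMIs in single cells.

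A threshold of 3 UMIs lies close to what free RNA can give, so the same genes were read in barcodes with 10 to 100 UMIs, which hold mostly RNA outside cells. There the rule genes summed to 576 (YFP-) and 1095 (YFP+) CPM, between the 90.04 and 222 CPM of the other cells and the 2093 and 2522 CPM of Ccr2-S100 cells. Barcodes made of free RNA alone, with the UMI totals of these cells, would pass the rule in 19.9% and 37.2% of cases, more than the 10.7% and 23.7% of cells that passed. In cells with at least 10 UMIs of other cell types, described further on, 1 of 4 YFP- and 3 of 31 YFP+ cells had a Ccr2 UMI at median depths of 2494.5 and 2381 UMIs. Of these cells, 3 and 23 were themselves chosen by the rule, so the counts do not measure how much Ccr2 free RNA adds. The UMIs of each cell were also split at random, with cells chosen by the rule genes in 1 part and levels taken from the other. This chose 91 YFP- and 588 YFP+ cells, which are not the same set as the Ccr2-S100 cells. In the part not used for the choice, Ccr2 was still at 654 (YFP-) and 638 (YFP+) CPM in chosen cells, against 37.7 and 178 CPM in cells not chosen, and S100a4 had log2 ratios of 3.99 and 2.76. S100a6, Tppp3 and Gda also kept positive ratios there, the lowest being 1.65 for Gda in the YFP- library. How many single cells passed through free RNA was not tested.

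Cells just outside and just inside the threshold, with 2 and 3 rule UMIs, had 67.0 and 0 CPM of Lgals3 among YFP- cells and 54.4 and 97.6 CPM among YFP+ cells. Emp1 went from 67.0 to 199.7 CPM and from 92.0 to 114 CPM, and Retnla from 1043 to 621 CPM among YFP- cells. The YFP- groups held 46 and 19 cells and the YFP+ groups 250 and 177 cells. Retnla in the YFP+ library did not rise evenly. It stood at 271, 1099.5 and 873 CPM in cells with 0, 1 and 2 rule UMIs, and at 2258, 1296, 3275 and 2229 CPM in those with 3, 4 or 5, 6 to 9 and at least 10. In the YFP- library it stood at 310, 449 and 1043 CPM in cells with 0, 1 and 2 rule UMIs. Inside the threshold it was at 621, 1720, 1671 and 3116 CPM in YFP- cells with 3, 4 or 5, 6 to 9 and at least 10. Since single cells hold many of its UMIs, no step between neighbouring groups is read as a difference. The 0 of Lgals3 rests on 19 YFP- cells, with an exact Poisson interval that reaches 81.9 CPM. Whether the cells form 1 continuous range was not tested.

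The label of these cells, a monocyte-like type, was then set against markers. Both markers named beside the rule genes were higher in Ccr2-S100 cells. Lgals3, which encodes galectin-3, stood at 197 (YFP-, 149.97–253) and 184 (YFP+, 164–206) CPM in Ccr2-S100 cells, against 43.0 (34.4–53.1) and 49.6 (43.1–56.8) CPM in the other cells. Emp1, a tetraspan membrane protein gene, stood at 193 (YFP-, 147–249) and 187 (YFP+, 167–209) CPM in Ccr2-S100 cells, against 31.0 (23.8–39.8) and 37.0 (31.4–43.3) CPM in the other cells. The log2 ratios in the YFP- and the YFP+ library were 2.17 (1.69 to 2.68) and 1.87 (1.63 to 2.15) for Lgals3 and 2.60 (2.1 to 3.18) and 2.31 (2.06 to 2.63) for Emp1. Markers of blood monocytes ranged from no UMI to levels above those of the other cells. Of 16 monocyte genes, Ly6c2, Plac8, Chil3, Vcan and Treml4 had no UMI in any of the 777 cells, where the floor of 3 counts is 9.83 (YFP-) and 1.82 (YFP+) CPM. Hp and Itgal had 1 UMI each, all in YFP+ cells, and Ace had 2. Fn1 was at 13.9 CPM, Thbs1 at 10.3 CPM and Napsa at 15.8 CPM in YFP+ Ccr2-S100 cells, against 1.90, 1.42 and 2.14 CPM in the other YFP+ cells, but 1 cell held 9 of the 23 Fn1 UMIs and 1 cell 8 of the 17 Thbs1 UMIs, and the YFP- cells had 0, 0 and 1 UMI of these genes. Spn, with 6 and 40 UMIs, was at 19.7 (YFP-, 7.21–42.8) and 24.2 (YFP+, 17.3–33.0) CPM in Ccr2-S100 cells, against 9.505 (5.72–14.8) and 12.1 (9.01–15.9) CPM in the other cells. Ifitm6, with 10 and 30 UMIs, was at 32.8 (YFP-, 15.7–60.2) and 18.2 (YFP+, 12.3–26.0) CPM in Ccr2-S100 cells, against 22.5 (16.4–30.1) and 16.4 (12.7–20.7) CPM in the other cells. Both were at mean levels too low to be tested. The whole list summed to 164 and 227 CPM in Ccr2-S100 cells against 134 and 159 CPM in the other cells, most of it Plbd1, which stood at 108 and 137 CPM against 96.5 and 123 CPM.

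Genes that mark macrophages were all present, and none of the 14 on a list of them passed the 1.5-fold threshold used further on. Over all genes tested, 1.92% were called higher and 1.64% lower, so none in a list of 14 is close to that share. Csf1r, the receptor for the macrophage growth factor CSF1, stood at 799 (YFP-) and 713 (YFP+) CPM in Ccr2-S100 cells, against 976 and 908 CPM in the other cells. Adgre1, which encodes F4/80, was at 239 and 215 CPM against 263 and 253 CPM, and the complement gene C1qa at 5945 and 6120.4 CPM against 6135 and 6264 CPM. The list took a median of 3.75% of the UMIs of YFP- and 3.84% of YFP+ Ccr2-S100 cells, against 3.55% and 3.68% in the other cells. Fcgr1, which encodes the CD64 of the sort, was at 68.8 and 116 CPM against 114 and 113 CPM. The cells therefore carried the macrophage genes, had no UMI of Ly6c2, Plac8, Chil3, Vcan or Treml4 and held some RNA of other monocyte genes, and they are named here by their leading genes.

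**Figure D1:**
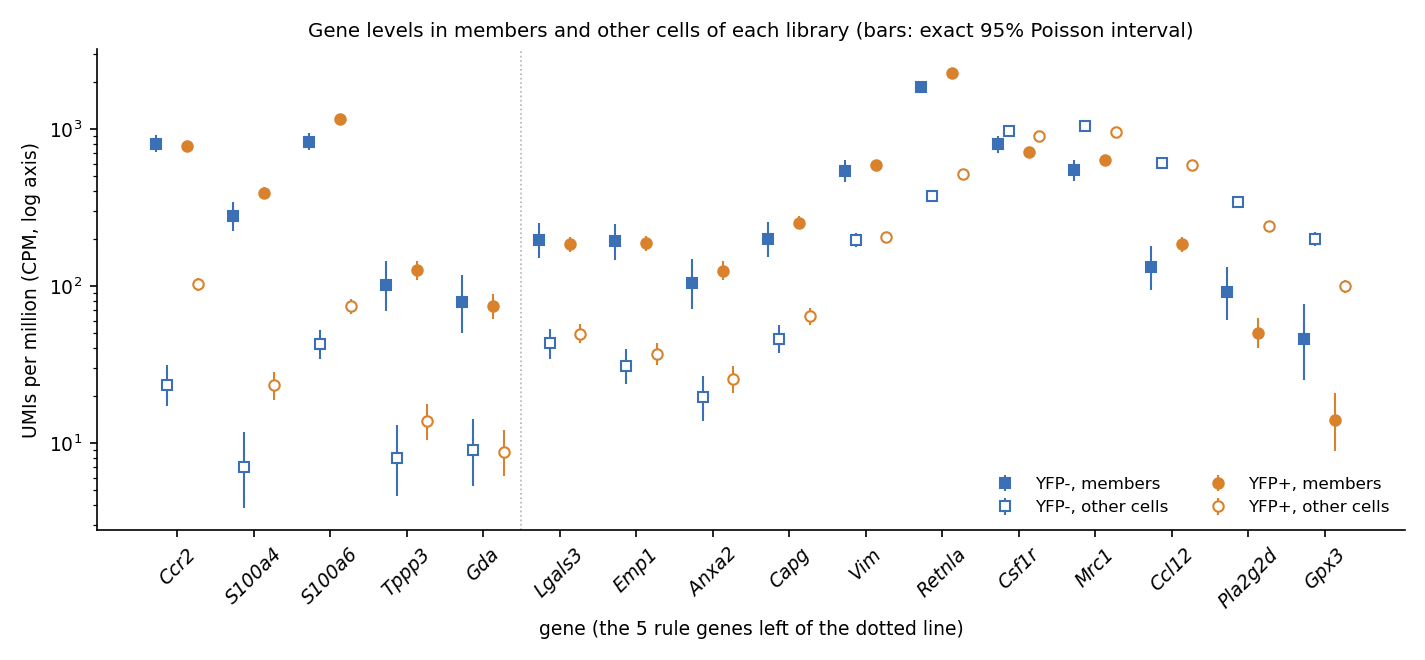
Level of 16 genes in CPM (log axis) in Ccr2-S100 cells (members, filled) and the other cells (open) of the YFP- (squares) and the YFP+ library (circles), with exact 95% Poisson intervals. Right of the dotted line, Lgals3, Emp1, Anxa2, Capg, Vim and Retnla lie higher in Ccr2-S100 cells of both libraries, Mrc1, Ccl12, Pla2g2d and Gpx3 lie lower, and Csf1r is at 713 to 976 CPM in all 4 groups.

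To ask how common the cells were in each fraction, their share was taken per library. They made up 10.7% (8.77–12.9) of YFP- and 23.7% (22.2–25.3) of YFP+ cells. YFP- cells were sequenced more deeply, which gives them more chances to reach 3 UMIs, and after each cell was thinned to 1000 UMIs the shares were 4.69% (3.40–6.29) and 12.0% (10.8–13.2). No cell was lost by this thinning, since all had at least 1000 UMIs. At either depth the share was higher in the YFP+ library by more than counting error. The YFP+ library also held more of the rule genes in free RNA, and the part of this in its larger share was not tested. Of all Ccr2-S100 cells, 87.6% (85.1–89.9) came from the YFP+ library, against 73.3% (71.6–74.8) of the other cells.

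Ccr2-S100 cells were next compared with the other cells across all genes with a mean of at least 20 CPM in each library, counted as the mean of the levels in Ccr2-S100 cells and other cells, which left 5008 genes. A gene was called higher or lower where its level differed at least 1.5-fold in the same direction in both libraries. This called 96 genes higher (1.92% of the genes tested) and 82 lower (1.64%), and the 5 rule genes and Lgals3 and Emp1 are among the 96. The median log2 ratio over all genes tested was -0.01 in both libraries. Without the cells that carried at least 10 UMIs of other cell types, 83 genes were higher and 77 lower, of which 78 and 71 were among those above. Without cells with at least 10 UMIs of cell cycle genes the counts were 75 and 75, of which 66 and 67 were among them. The number higher fell further, to 59 of which 44 were among the 96, without cells with at least 2 UMIs of other cell types, and to 52 when the Ccr2-S100 cell with most UMIs of each gene was left out. Leaving out cells with 2 or more UMIs of dendritic cell genes gave 181 higher and 161 lower. Of these, 44 and 37 were among the 96 and 82. With the rule applied after thinning to 1000 UMIs, 109 and 104 were called, 54 and 45 of them shared with the 96 and 82. In the UMIs not used for the choice, for the cells chosen by the other part, 121 and 105 were called, 62 and 47 of them shared.

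**Figure D2:**
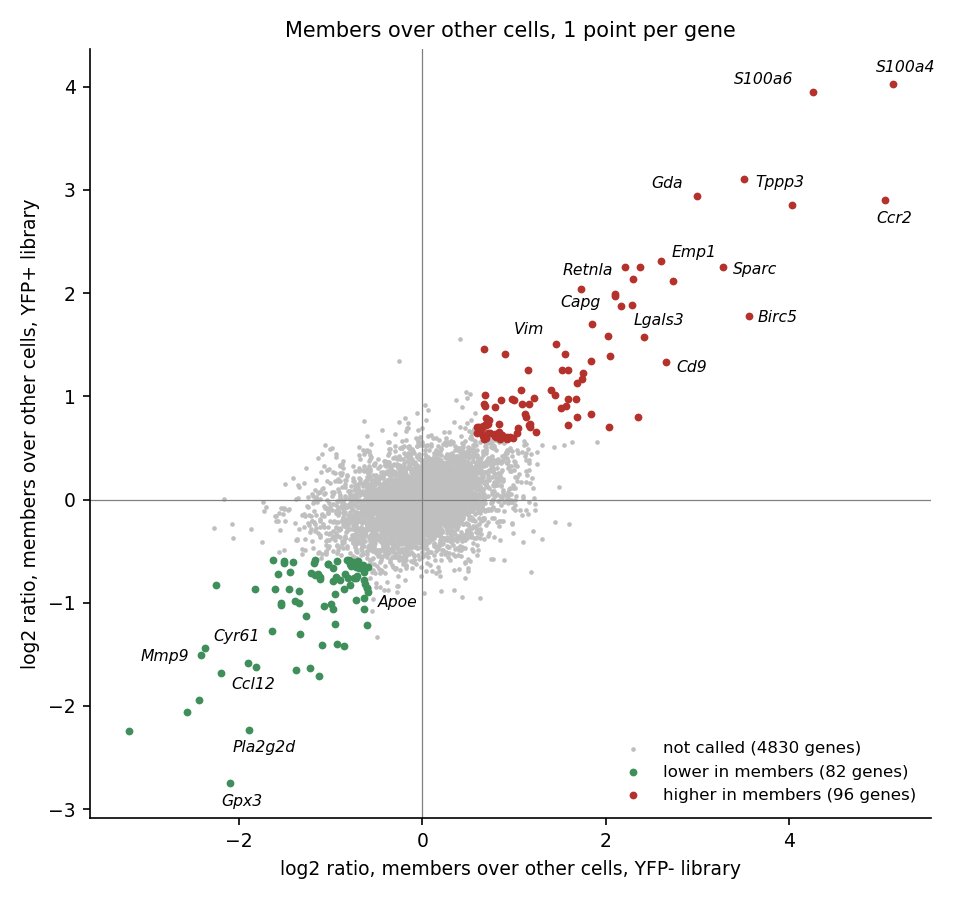
Log2 ratio of Ccr2-S100 cells (members) over the other cells, with the YFP- library on the x axis and the YFP+ library on the y axis, 1 point per gene with a mean of at least 20 CPM in each library. The 96 genes higher and 82 genes lower at least 1.5-fold in both libraries are coloured, and the rule genes S100a4, S100a6, Tppp3, Gda and Ccr2, whose values chose the cells, lie at the upper right.

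Several S100 and annexin genes outside the rule were higher in Ccr2-S100 cells, namely S100a10, S100a11, Anxa1, Anxa2, Anxa4 and Anxa5. The S100, annexin and galectin list, which leaves out the rule genes, had 11 of 13 genes tested, of which 7 were higher and 0 lower, with a median log2 ratio of 0.79 against -0.02 over all genes. Among all genes tested, 1.92% were higher and 1.64% lower. Anxa2, which binds membranes in pairs with S100A10, was at 105 (YFP-, 71.7–148) and 125 (YFP+, 108–143) CPM in Ccr2-S100 cells, against 19.5 (13.9–26.7) and 25.4 (20.8–30.7) CPM in the other cells. Anxa1, an annexin with anti-inflammatory functions, was at 59.0 (YFP-) and 83.1 (YFP+) CPM in Ccr2-S100 cells, against 12.0 and 16.6 CPM in the other cells. S100a10 itself was at 498 and 579.5 CPM against 223 and 243 CPM. Each of these genes was higher in both libraries, with log2 ratios of 2.37 and 2.25 for Anxa2, 2.20 and 2.25 for Anxa1 and 1.15 and 1.25 for S100a10. S100a11, Anxa4 and Anxa5 had lower ratios, of 0.99 and 0.96, 0.98 and 0.59 and 0.80 and 0.60. S100a1, S100a13, Anxa3 and Lgals1 were tested and did not pass, and the neutrophil genes S100a8 and S100a9 had no UMI in any Ccr2-S100 cell.

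S100a4, S100a6 and S100a11 lie on chromosome 3 in GRCm38, where GENCODE M21 places S100a4 at chr3:90603771-90606045, S100a6 at chr3:90612882-90624181 and S100a11 at chr3:93520488-93526287, all on the forward strand. The bases 250 to 21 before the RefSeq start of each gene (RefSeq, GRCm38.p6, forward strand) are printed to set the start of S100a11, which was higher outside the rule, beside those of both S100 genes that the rule used. They are chr3:90603520-90603749 for S100a4, chr3:90612644-90612873 for S100a6 and chr3:93520246-93520475 for S100a11. Capitals mark matches on either strand to the AP-1 motif TGANTCA, the PU.1 motif GAGGAAG or the TATA box TATAAA, none of which overlap here.
S100a4: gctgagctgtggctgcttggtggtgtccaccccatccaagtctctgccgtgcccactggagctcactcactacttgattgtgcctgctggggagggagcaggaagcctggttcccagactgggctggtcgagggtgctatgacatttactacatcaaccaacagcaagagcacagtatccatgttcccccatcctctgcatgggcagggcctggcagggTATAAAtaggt
S100a6: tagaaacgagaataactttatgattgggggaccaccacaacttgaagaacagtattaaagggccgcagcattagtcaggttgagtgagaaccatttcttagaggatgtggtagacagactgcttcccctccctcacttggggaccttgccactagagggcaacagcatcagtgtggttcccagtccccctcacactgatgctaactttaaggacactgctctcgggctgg
S100a11: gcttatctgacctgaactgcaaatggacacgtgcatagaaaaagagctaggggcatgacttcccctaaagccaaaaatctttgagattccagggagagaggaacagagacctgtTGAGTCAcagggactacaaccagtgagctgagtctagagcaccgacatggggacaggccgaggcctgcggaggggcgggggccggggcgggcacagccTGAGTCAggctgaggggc
S100a4 has 1 TATA box, 31 to 26 bases before the start, and no match to the others. S100a11 has 2 AP-1 matches, at 136 to 130 and 38 to 32 bases before the start, and S100a6 has no match to any of the motifs. Over 32851 RefSeq promoters of the same length, 6.34% held the AP-1 motif, 9.54% the PU.1 motif and 11.8% the TATA box. These matches describe the letters only. Of 4 genes searched 3 are shown, since the promoters used here held no entry for S100a10.

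Part of the cytoskeletal genes were higher as well. Of 20 tested genes of a cytoskeleton and adhesion list of 21, 7 were higher and 0 lower, with a median log2 ratio of 0.52. Among all genes tested, 1.92% were higher and 1.64% lower, and the median was -0.02. Vim, which encodes vimentin, stood at 540.5 (YFP-, 461–629.5) and 585 (YFP+, 549–623) CPM in Ccr2-S100 cells, against 197 (178–218) and 205 (192–219) CPM in the other cells. Lmna, which encodes lamin A, stood at 105 (YFP-) and 94.6 (YFP+) CPM in Ccr2-S100 cells, against 28.5 and 28.5 CPM in the other cells. Crip1, a LIM protein gene, was at 3066 and 3459.7 CPM against 1553 and 1755 CPM, and Lsp1, which encodes an actin-binding protein of leukocytes, at 436 and 464 CPM against 205 and 244 CPM. Tmsb10, Tagln2 and Emp3 made up the rest of the 7, with log2 ratios between 0.62 and 1.05. The integrin genes Itga4, Itgb1 and Itgb2 and the adhesion gene Cd44 did not pass, and Actb, at 6449.5 and 9579 CPM against 5111 and 9109.6 CPM, did not either.

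Among single genes, Retnla and Capg stood out. Retnla encodes RELM-alpha, a protein that macrophages secrete in response to interleukin-4, and it stood at 1847 (YFP-, 1698–2006) and 2262 (YFP+, 2190.4–2336) CPM in Ccr2-S100 cells, against 375 (349–403) and 514 (493–537) CPM in the other cells. Its log2 ratios were 2.30 (2.14 to 2.46) and 2.13 (2.06 to 2.21). Retnla UMIs were unevenly spread, since 39 YFP- and 235 YFP+ Ccr2-S100 cells had any, with up to 75 and 149 UMIs in 1 cell. The thinned shares of cells with a Retnla UMI were 31.2% and 27.5% of Ccr2-S100 cells and 8.14% and 12.2% of the other cells, against 40.6%, 34.5%, 17.4% and 17.1% without thinning. Capg, which caps actin filaments, stood at 199.8 (YFP-, 153–257) and 253 (YFP+, 229–278) CPM in Ccr2-S100 cells, against 46.0 (37.1–56.4) and 63.8 (56.4–71.9) CPM in the other cells, and 35 of 96 and 244 of 681 cells carried it. Cdkn1a, which encodes the cell cycle inhibitor p21, was at 115 (YFP-) and 122 (YFP+) CPM in Ccr2-S100 cells, against 41.5 and 60.0 CPM in the other cells, and the tubulin gene Tuba1a had log2 ratios of 1.59 and 0.98. The tetraspanin gene Cd9 stood at 445 (YFP-) and 315 (YFP+) CPM in Ccr2-S100 cells, against 70.0 and 124 CPM in the other cells, and part of its UMIs were in cells with RNA of other cell types, given further on.

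The lowest ratios belonged to genes of different kinds. Gpx3, an extracellular glutathione peroxidase, was at 45.9 (YFP-, 25.1–76.9) and 13.9 (YFP+, 8.84–20.9) CPM in Ccr2-S100 cells, against 199.6 (180.5–220.2) and 99.2 (89.9–109) CPM in the other cells. Pla2g2d, a secreted phospholipase of resident macrophages, was at 91.7 (YFP-, 60.9–133) and 50.3 (YFP+, 40.1–62.4) CPM in Ccr2-S100 cells, against 342 (317–368) and 239 (225–255) CPM in the other cells. The matrix protease gene Mmp9, the matricellular gene Cyr61 and the cytokine gene Tslp followed, with log2 ratios of -2.42 and -1.51, -2.37 and -1.43 and -1.81 and -1.62. The other named genes were Cp, which encodes the ferroxidase ceruloplasmin (-1.38 and -1.65), the peptide transporter gene Slc15a2 (-1.22 and -1.63), the NAD-consuming ectoenzyme gene Cd38 (-1.33 and -1.31), Ddit4, an inhibitor of mTORC1 (-1.57 and -0.72), the TFIID subunit gene Taf11 (-1.35 and -0.89), the DNA repair gene Rad51b (-0.96 and -1.20) and the lectin gene Clec10a (-1.07 and -1.03). All lay below 0 in both libraries. The mean log2 ratio of Cyr61 was -1.90, and -2.86 without cells holding at least 10 UMIs of other cell types. Gpx3 in the YFP- cells rested on 14 UMIs, Tslp on 10 and Mmp9 on at most 11, so their sizes there are uncertain.

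The ligands of CCR2 were lower in Ccr2-S100 cells than in the other cells. Of 4 ligand genes, Ccl2, Ccl7 and Ccl12 were tested and all 3 were lower, with a median log2 ratio of -1.42. Among all genes tested, 1.64% were lower. Ccl12 was at 131 (YFP-, 93.6–178) and 184 (YFP+, 164–206) CPM in Ccr2-S100 cells, against 603 (569–638) and 589 (567–613) CPM in the other cells. Ccl2 was at 72.1 (YFP-) and 108 (YFP+) CPM in Ccr2-S100 cells, against 143 and 227 CPM in the other cells, and Ccl7 at 42.6 and 37.0 CPM against 94.0 and 124 CPM. Among Ccr2-S100 cells that had fewer than 10 UMIs of other cell types, those with a Ccr2 UMI had 111 and 187 CPM of Ccl12 and those without had 172 and 198 CPM. Thinned to 1000 UMIs, 4.17% of YFP- and 9.40% of YFP+ Ccr2-S100 cells had a Ccl12 UMI, against 21.7% and 22.6% of the other cells. Of the other chemokine receptors, the genes Cxcr4 and Cmklr1 did not pass, with log2 ratios of 0.66 and 0.43 and -0.24 and -0.29. Cx3cr1, the fractalkine receptor gene of resident macrophages and microglia, was at 278 and 380.1 CPM against 275 and 320.4 CPM and did not pass.

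Genes of perivascular and other resident macrophages were lower or did not pass. Of 16 tested genes of a list of 19, 5 were lower and 0 higher, with a median log2 ratio of -0.56. Among all genes tested, 1.64% were lower and 1.92% higher, and the median was -0.02. Mrc1, the mannose receptor gene, was at 547 (YFP-, 467–637) and 638 (YFP+, 600.4–678) CPM in Ccr2-S100 cells, against 1040.5 (996–1086) and 963 (934–993) CPM in the other cells. Lyve1, a hyaluronan receptor gene, was at 213 (YFP-) and 138 (YFP+) CPM in Ccr2-S100 cells, against 331 and 269 CPM in the other cells, and the scavenger receptor gene Stab1 at 426 and 359 CPM against 767 and 593 CPM. Igf1 and Pla2g2d made up the rest. The scavenger receptor gene Cd163, the folate receptor gene Folr2 and the platelet factor gene Pf4 did not pass, with log2 ratios of -0.70 and -0.42, 0.07 and -0.33 and -0.67 and -0.48. Of thinned Ccr2-S100 cells 14.6% and 10.6% had a Lyve1 UMI, against 22.7% and 19.4% of the other cells. In the 23 YFP+ cells with RNA of other cell types, described further on, Lyve1 was at 66.2 CPM, and the share of these UMIs that is free RNA was not tested.

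Apoe, the apolipoprotein gene that activated microglia express, was at 18585 (YFP-) and 13611 (YFP+) CPM in Ccr2-S100 cells, against 28234 and 24705 CPM in the other cells, with log2 ratios of -0.60 and -0.86. Of 7 tested activated microglia genes it alone was lower and Cd9 alone higher. Among 9 microglia genes Siglech and Fcrls were lower, with log2 ratios of -0.96 and -0.92 and -0.95 and -0.75, and Olfml3 and Sparc were higher. For Sparc this held only with the cells that carry RNA of other cell types, without which its mean log2 ratio was 0.53, under 1.5-fold. Olfml3 was at 36.0 and 29.7 CPM against 10.51 and 16.6 CPM, and Trem2, a lipid receptor gene, at 406 and 447 CPM against 301 and 321 CPM without passing. The mean levels of Olfml3 lay close to the level filter of 20 CPM. Of 9 tested genes from a list that the study drew from bulk RNA of nerve macrophages, Cp and Ms4a7 were lower and none was higher. Among all genes tested, 1.64% were lower and 1.92% higher.

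Genes of antigen presentation mostly stayed within 1.5-fold over all Ccr2-S100 cells, although cells with and without Ccr2 differed, as given further on. Of 8 tested genes for MHC class II presentation, none was higher, and Cd86, a costimulatory receptor ligand, was lower at 88.4 and 86.1 CPM against 154 and 154 CPM. H2-Aa stood at 6961 (YFP-) and 8378 (YFP+) CPM in Ccr2-S100 cells, against 6075 and 7811 CPM in the other cells, and its log2 ratios were 0.20 and 0.10. The list summed to 48101 and 60206 CPM in Ccr2-S100 cells against 40939 and 53988 CPM in the other cells. Irf4, a transcription factor gene of dendritic cells and of some macrophages, was higher at 36.0 and 25.5 CPM against 18.5 and 16.6 CPM, while the dendritic cell genes Xcr1, Clec9a and Itgae had no UMI in any Ccr2-S100 cell. In the YFP+ library Irf4 lay only just past 1.5-fold and close to the level filter of 20 CPM. The 6 tested dendritic cell genes held 1 higher (Irf4) and 1 lower (Clec10a), and the list of 13 summed to 1638 and 1469 CPM in Ccr2-S100 cells against 1699 and 1694 CPM in the other cells, with Mgl2 the most abundant. Of 14 early response genes that dissociation of tissue can induce, Jun and Ier2 were lower and none was higher. Of 3 tested interferon-stimulated genes and 4 inflammatory cytokine and chemokine genes, none passed. Over all genes tested, 1.92% were called higher and 1.64% lower, so counts of 0 in lists this short are close to that share.

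Some Ccr2-S100 cells carried RNA of Schwann cells. Mbp, which encodes a protein of the myelin sheath, was at 199.8 (YFP-, 153–257) and 209 (YFP+, 188–232) CPM in Ccr2-S100 cells, against 59.0 (48.9–70.7) and 92.3 (83.4–102) CPM in the other cells, and Pmp22, which encodes another myelin protein and is also read in macrophages, at 730.4 (YFP-) and 411 (YFP+) CPM in Ccr2-S100 cells, against 229 and 209 CPM in the other cells. Mbp UMIs were found in 15 of 96 and 127 of 681 Ccr2-S100 cells, and 1 cell of each library held 27 of 61 and 35 of 345 UMIs. Pmp22 was also unevenly spread, with 137 of 223 and 84 of 678 UMIs in 1 cell. Lists for Schwann cells, fibroblasts, mural, endothelial and perineurial cells were therefore summed in each cell. At least 10 UMIs of these lists were found in 3 of 96 (3.13%, 0.649–8.86) YFP- and 23 of 681 (3.38%, 2.15–5.02) YFP+ Ccr2-S100 cells, against 1 of 799 (0.125%) and 8 of 2188 (0.366%) other cells. A Ccr2 UMI was found in 1 of the 3 and 3 of the 23, and their median share of macrophage genes was 0.256% and 0.223%. S100a6, which Schwann cells and fibroblasts also express, was at 1824 and 1985 CPM in them and Csf1r at 228 and 198 CPM.

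The 7 genes of the Schwann list summed to 1775 and 909 CPM in Ccr2-S100 cells against 345 and 351 CPM in the other cells, with Pmp22 the most abundant and none at 0, and Mbp and Pmp22 were higher. The 11 fibroblast genes summed to 118 and 419 CPM in Ccr2-S100 cells against 59.5 and 82.3 CPM in the other cells, with Gsn, the only one tested and higher, the most abundant and 6 of them at 0 in YFP- Ccr2-S100 cells, among them Col1a1 and Pdgfra. The 7 mural genes summed to 6.55 and 411 CPM in Ccr2-S100 cells against 5.002 and 10.4 CPM in the other cells, with 6 at 0 in the YFP- cells and Acta2 the most abundant. The 7 endothelial genes summed to 29.5 and 23.0 CPM in Ccr2-S100 cells against 103 and 77.1 CPM in the other cells, almost all of it Egfl7, the only one tested, which was lower. Perineurial genes had 0 tested, and Cldn1 and Krt19 had no UMI in Ccr2-S100 cells. A sort for CD64+ CD45int cells should remove all of these cell types. At a lower limit of 2 such UMIs, 29.2% and 31.3% of Ccr2-S100 cells and 30.8% and 23.0% of the other cells had them. Once all cells with at least 10 such UMIs were left out, the mean log2 ratio of Mbp was -0.05 and that of Pmp22 -0.00. Both genes are on the lists by which those cells were found, so their fall follows in part from the choice of cells. Sparc, which encodes a matrix protein of glia, fibroblasts and microglia and stood at 144 (YFP-) and 94.0 (YFP+) CPM in Ccr2-S100 cells, against 14.01 and 19.0 CPM in the other cells, went to 0.53. Without those cells the mean log2 ratio was 2.06 for Lgals3, 2.497 for Emp1, 2.28 for Anxa2, 2.26 for Retnla, 2.01 for Capg, 1.45 for Vim and 1.42 for Cd9.

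Markers of other leukocytes and of epithelium were almost absent. None of the 5 mast cell genes and none of the keratinocyte genes Epcam, Krt5, Krt14 and Krt8 had a UMI in Ccr2-S100 cells, and 7 of 8 genes of T cells, NK cells and innate lymphoid cells were at 0 as well. The B cell genes Cd79a and Ms4a1 were at 0, and Cd79b, the only one tested, did not pass. Of the neutrophil genes Ly6g and Retnlg were at 0, and Mmp9, the only one tested, was lower.

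**Figure D3:**
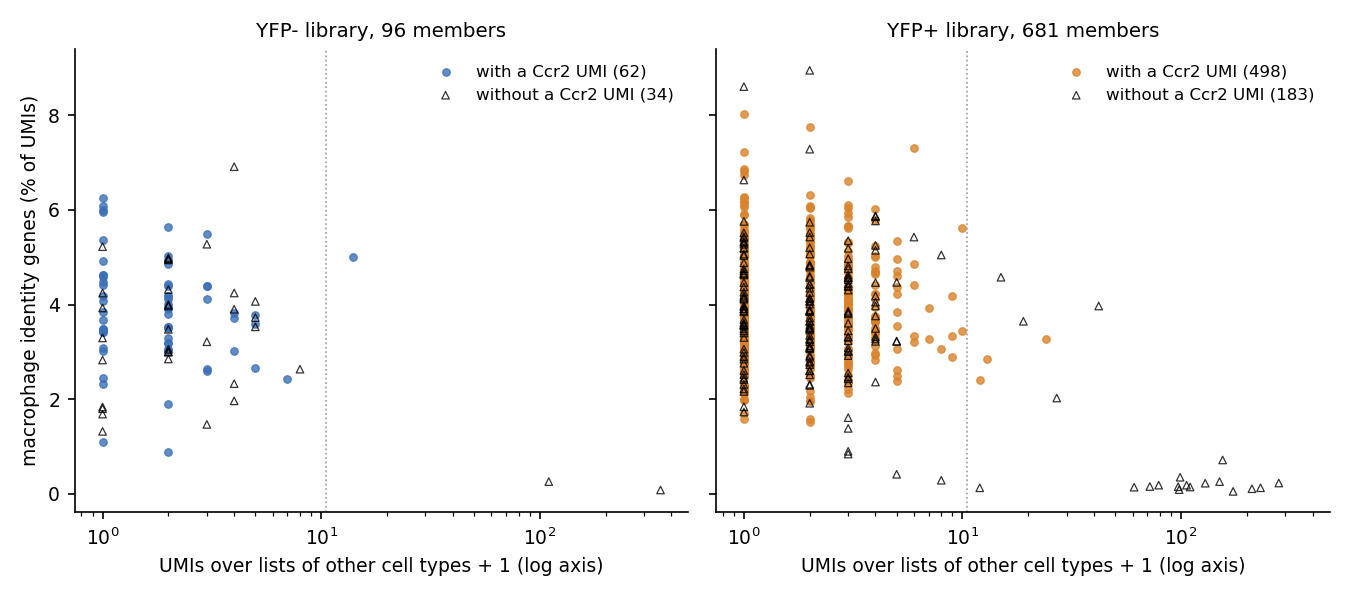
UMIs over the lists for Schwann, fibroblast, mural, endothelial and perineurial cells plus 1 (x axis, log) and the share of UMIs on 14 macrophage genes (y axis, %) in each of the 96 YFP- and 681 YFP+ Ccr2-S100 cells (members), with and without a Ccr2 UMI. Right of the dotted line, at 10 or more such UMIs, lie 3 YFP- and 23 YFP+ cells, most of them without a Ccr2 UMI and with a macrophage share near 0.

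Proliferation genes were the other feature carried by few cells. Of 5 tested genes of a cell cycle list of 10, Top2a, Birc5 and Stmn1 were higher, against 1.92% of all genes tested. Stmn1, which encodes the microtubule regulator stathmin, had log2 ratios of 1.68 and 1.13. Top2a, which encodes a topoisomerase of dividing cells, was at 81.9 (YFP-) and 62.4 (YFP+) CPM in Ccr2-S100 cells, against 16.0 and 16.1 CPM in the other cells, with UMIs in 4 of 96 and 29 of 681 Ccr2-S100 cells. Birc5, which encodes survivin, was at 111 (YFP-) and 35.8 (YFP+) CPM in Ccr2-S100 cells, against 8.50 and 9.73 CPM in the other cells, and 1 YFP- cell held 12 of its 34 UMIs. Mki67 was below the level filter in the YFP- library, with 29.5 and 37.0 CPM against 7.504 and 9.49 CPM. At least 10 UMIs of the list were found in 5 of 96 (5.21%, 1.71–11.7) and 28 of 681 (4.11%, 2.75–5.89) Ccr2-S100 cells, against 10 of 799 (1.25%, 0.602–2.29) and 25 of 2188 (1.14%, 0.741–1.68) other cells. Deeper cells reach 10 UMIs more readily, and Ccr2-S100 cells were deeper. After thinning to 1000 UMIs, 2.08% and 2.20% of Ccr2-S100 cells and 0.876% and 0.823% of the other cells had a Top2a UMI, against 4.17%, 4.26%, 1.75% and 1.33% without thinning. The YFP- shares rest on 2 to 4 Ccr2-S100 cells.

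Levels also followed the number of rule UMIs per cell. Lgals3 was at 44.6 and 46.7 CPM in YFP- and YFP+ cells with no rule UMI and at 345 and 329 CPM in the 19 and 88 cells with 10 or more. Anxa2 went from 14.05 and 15.6 to 255 and 217 CPM between the same groups. Mrc1 went down from 1048 and 1018 to 404 and 508 CPM, and Pla2g2d from 357 and 281 to 30.0 and 35.0 CPM. In the YFP+ library cells with 1 or 2 rule UMIs lay between for these genes, and the intervals were wide in the YFP- library. Cells with more rule UMIs were deeper as well, with medians of 2373 and 1764 UMIs at no rule UMI and 3663 and 2848 UMIs at 10 or more.

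**Figure D4:**
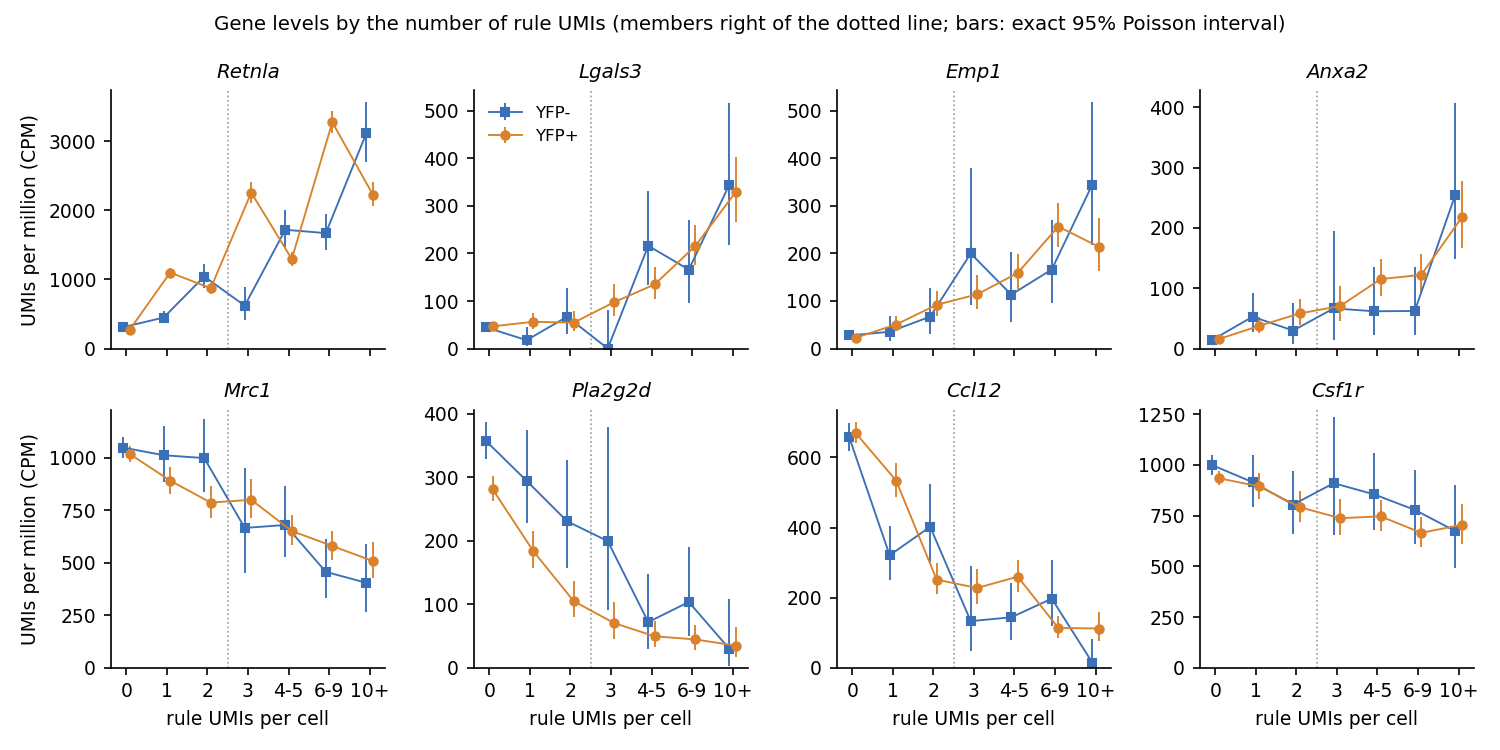
Level in CPM of 8 genes by the number of UMIs over the rule genes per cell, in the YFP- (squares) and the YFP+ library (circles), with exact 95% Poisson intervals. Members, the Ccr2-S100 cells, are right of the dotted line. Retnla, Lgals3, Emp1 and Anxa2 lie higher and Mrc1, Pla2g2d and Ccl12 lower at 10 or more rule UMIs than at 0, and Csf1r moves from 999.1 to 674 CPM and from 934 to 704 CPM.

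Across all cells of a library, the genes whose log level went most with the summed rule genes were S100a10 (Pearson r 0.27 across 895 cells), Retnla (0.27), Crip1 (0.26), Anxa2 (0.25) and Cd9 (0.25) in the YFP- library. In the YFP+ library they were Crip1 (0.33 across 2869 cells), Emp1 (0.30), S100a10 (0.29), Capg (0.29) and Vim (0.28). Apoe had the most negative value in both, -0.28 and -0.40. Cells of 1 library share their library and differ in depth, and these values describe them and were not tested.

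Since the rule takes cells with and without Ccr2, both kinds were read apart, after cells with at least 10 UMIs of other cell types were left out. There were 61 YFP- and 495 YFP+ cells with a Ccr2 UMI and 32 and 163 without. Lgals3 was at 172 and 153 CPM with Ccr2 and at 263 and 308 CPM without, and Retnla at 1401 and 2134 CPM with and 2904 and 2979.6 CPM without. Both kinds therefore lay above the 43.0 and 49.8 CPM of Lgals3 and the 375 and 516 CPM of Retnla in the other cells. Folr2 and Lyve1, genes of resident macrophages, were higher in those without in both libraries. Folr2 was at 223 and 191 CPM with Ccr2 but at 698 and 442 CPM without, above the 352 and 307 CPM of the other cells. Lyve1 was at 162 and 86.4 CPM with and 334 and 319 CPM without, while the other cells had 331 and 269 CPM. Mrc1 and Pla2g2d, on the same list, were also higher without Ccr2 than with it but stayed below the other cells. Without Ccr2, Mrc1 was at 769 and 771 CPM, against 1041 and 965 CPM in the other cells. Pla2g2d was at 162 and 91.0 CPM without Ccr2, against 342 and 240 CPM. Cd209f and Fcna, also on the resident macrophage list and named after their values were seen, were at 53.5 and 61.6 CPM in YFP+ cells without Ccr2, at 9.05 and 11.5 CPM in those with Ccr2 and at 20.5 and 14.1 CPM in the other YFP+ cells. In the YFP- cells without Ccr2 they had 2 and 4 UMIs. H2-Ab1, an MHC class II gene, went the other way, at 9373 and 10602 CPM with Ccr2 and 4705 and 8023 CPM without. The other cells lay between, with 6318 and 8355 CPM. Cells without Ccr2 had to reach 3 UMIs on the remaining rule genes, so S100a4, at 415 and 592 CPM against 202 and 341 CPM, is higher in them by the way they were chosen.

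Finally, YFP+ and YFP- Ccr2-S100 cells were set side by side, with 1 library each and no test. Of 5499 genes with a mean of at least 20 CPM, 521 (9.47%) were at least 1.5-fold higher and 765 (13.9%) at least 1.5-fold lower in the YFP+ cells. At 20 CPM a gene had about 6.11 UMIs in the YFP- cells, so counting error alone can move a gene past this fold. The rule genes, Lgals3, Emp1 and Retnla did not pass it, and for the rule genes the threshold of 3 UMIs that both groups had to reach sets the levels in part. The log2 ratio of YFP+ over YFP- cells was -0.06 (-0.26 to 0.14) for Ccr2, 0.50 (0.17 to 0.84) for S100a4, 0.48 (0.29 to 0.67) for S100a6, -0.09 (-0.50 to 0.33) for Lgals3, -0.04 (-0.45 to 0.38) for Emp1 and 0.29 (0.16 to 0.42) for Retnla. Of 9 tested genes for MHC class II presentation none was higher, and Cd40, at 9 and 30 UMIs, was lower with -0.67 (-1.81 to 0.56). H2-Ab1 had 0.33 (0.27 to 0.39) in Ccr2-S100 cells and 0.40 in the other cells.

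Among called genes with a mean of at least 50 CPM, the highest ratios belonged to Acta2, Myl9, Igfbp7 and Tagln. Acta2, which encodes smooth muscle actin, had no UMI in the YFP- cells and 165 (146–186) CPM in the YFP+ cells, and its 272 UMIs were in 15 cells. Tagln, Myl9 and Igfbp7 had 2, 1 and 1 UMIs in the YFP- cells and log2 ratios of 4.31 (2.64 to 7.56), 4.62 (2.5 to 10.30) and 4.59 (2.46 to 10.27). Without cells with at least 10 UMIs of other cell types these ratios were 1.53, -0.31 and 0.86, and at a limit of 2 such UMIs Myl9 was at -1.66 and Igfbp7 at -1.09. In the 23 YFP+ cells with at least 10 UMIs of other cell types Acta2 was at 4383 CPM, and in the remaining Ccr2-S100 cells with a Ccr2 UMI at 4.11 CPM. The fibroblast list summed to 118 (YFP-) and 419 (YFP+) CPM in Ccr2-S100 cells and the Schwann list, in the opposite order, to 1775 and 909 CPM. The YFP- Schwann sum was 542 UMIs, and single YFP- cells held 356 and 109 UMIs over the lists of other cell types. Col1a1 had no UMI in the YFP- and 91 UMIs in 5 YFP+ cells, 56 of them in 1 cell. Tpm1, AC154912.1 and Hspa1b were also high, with 1.47 (0.49 to 2.75), 1.32 (0.50 to 2.32) and 1.31 (0.71 to 2.0). Tpm1 was at 0.098 and -0.37 under the same limits of 10 and 2 UMIs. Hspa1b, a heat shock gene, was also higher in the other YFP+ cells at 0.86. The 8 lowest ratios at that mean level, from -2.21 for AC122453.1 to -1.72 for Gm13680, all belonged to pseudogenes, and Rpl28-ps1 had -1.86 in Ccr2-S100 cells and -1.63 in the other cells. Of the 765 lower genes 220 were pseudogenes, against 4 of the 521 higher ones, and reads of pseudogenes can be shared with their parent genes. Of the lower genes 273 and of the higher genes 41 differed at least 1.5-fold in the same direction in the other cells, so for these genes the libraries differed in the same way outside the Ccr2-S100 cells.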

How the data were processed

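CD64+ CD45int cells of pooled sciatic nerves were captured in 2 10x libraries, 1 per YFP fraction, with no replicate. The deposited values are UMI counts per gene and barcode, made by the authors with Cell Ranger (version 3.0.2 in the submitters' notes, which also list Seurat 2.2.0) and not normalised. All 737280 barcodes are in the files, so the cell filter was applied here. It kept barcodes with at least 1000 UMIs and 200 genes, and 3653688 and 9365598 UMIs were on all YFP- and YFP+ barcodes. The members and gene lists were chosen with earlier results of these data known.

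Counts were summed over Ccr2-S100 cells and over the other cells of each library, scaled to CPM, and compared as log2 ratios after adding 1 CPM, with exact Poisson, conditional binomial and Clopper-Pearson 95% intervals. Genes with a mean of at least 20 CPM were called at a 1.5-fold difference in both libraries, and no p-value was computed. Named genes were the rule genes, genes of the 29 lists, and, among called genes with a mean of at least 50 CPM, the 15 highest and 15 lowest against the other cells (pseudogenes left out) and the 8 highest and 8 lowest between the fractions (pseudogenes kept). The results of 5 genes are not reported here. Single genes outside these were chosen after their values were seen. The computation ran in Python 3.11.15 (pandas 2.3.3, scipy 1.17.1, numpy 2.4.6) and was tested on simulated data. There were 21 alternatives, and 3 more were added after the data were seen. Gene positions came from GENCODE M21 (GRCm38) and matched 99.8% of identifiers. Promoters came from RefSeq (GRCm38.p6).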

Additional observations from a re-analysis of the deposited data

Results flagged for a closer look

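Barcodes below the cell filter also carried the rule genes. Of 341 YFP- barcodes with at least 200 but fewer than 1000 UMIs, 18 had at least 3 rule UMIs, and of 2075 such YFP+ barcodes, 120 had. These barcodes enter no comparison above, and they stand out because the signal lies in data outside the cells described. In the 120 YFP+ barcodes Retnla stood at 4573 CPM, set against 1063 CPM in the remaining barcodes of that depth, Anxa2 at 248 against 47.4 CPM and Pla2g2d at 24.8 against 197 CPM, the same directions as in the cells. In the 18 YFP- barcodes Anxa2 was at 235 against 55.4 CPM, Lgals3 had no UMI, and Retnla was at 470.3 against 1650.0 CPM, the opposite direction. Whether these are small cells or free RNA was not tested.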

How the results depend on the processing

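Of 672 gene values for Ccr2-S100 cells against other cells under the alternatives, 594 moved by less than their counting error, 68 moved further and 10 changed sign. Of 345 such values for YFP+ against YFP- cells, the numbers were 322, 17 and 6. The share of Ccr2-S100 cells followed depth and the rule itself. It was 19.0% in the YFP+ library at a minimum of 500 UMIs, 13.01% (YFP-) and 32.2% (YFP+) at 2000 UMIs, 15.9% and 32.5% with at least 2 rule UMIs, 7.04% and 13.2% with at least 5, 4.69% and 12.0% after thinning, 7.60% and 13.8% without S100a6 in the rule, 6.93% and 17.4% with a Ccr2 UMI required, and 21.7% in the YFP+ library without cells with 2 UMIs of other cell types. The YFP+ share was the higher one each time.

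Genes higher and lower in Ccr2-S100 cells numbered 62 and 53 with 10 CPM added, 39 and 42 at a minimum of 50 CPM, 803 and 958 with no minimum, 35 and 21 at 2-fold, and 181 and 161 without cells with 2 UMIs of dendritic cell genes. The number higher was 59 without cells with 2 UMIs of other cell types and 52 when the Ccr2-S100 cell with most UMIs of each gene was left out, which by construction only lowers their levels. Genes higher and lower in YFP+ than YFP- Ccr2-S100 cells numbered 872 and 1333 under the thinned rule, 819 and 1165 in the UMIs not used for the choice, 1292 and 1978 without cells with dendritic cell UMIs, 124 and 236 at 50 CPM, 6302 and 3909 with no minimum and 147 and 308 at 2-fold, and 344 were higher with 10 CPM added. Why these numbers differ between settings was not tested.

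Genes of other cell types changed sign. Without S100a6 in the rule the mean log2 ratio was -0.070 for Sparc, -0.52 for Mbp and -0.31 for Pmp22. With a Ccr2 UMI required it was -0.30 for Sparc, -0.46 for Mbp and -0.61 for Pmp22, and YFP+ over YFP- was -1.72 for Myl9 and -0.23 for Igfbp7. Without cells with 2 UMIs of other cell types Pmp22 was at -0.065, Myl9 at -1.66, Igfbp7 at -1.09 and Tpm1 at -0.37. Without cells with 10 such UMIs Mbp was at -0.049, Pmp22 at -0.0046 and Myl9 at -0.31. Clec10a, itself on the dendritic cell list, was at 0.55 once cells with dendritic cell UMIs were left out. The causes of the other changes were not tested. No paired analysis was possible because each condition is 1 library. The precision is lowest for the YFP- Ccr2-S100 cells, of which there are 96, so that 3 counts stand for 9.83 CPM.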
